A study of Mus musculus with 12 samples.

Results

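The 10 genes described here are adipokines and genes of the white fat cell: Adipoq, Lep, Retn, Rarres2, Rbp4, Apln, Fabp4, Plin1, Lpl and Pparg. They were chosen by name, and 12 gene probes on the array carry 1 of these names. All 10 genes passed the filter on dim probes and are 10 of 16921 genes tested. RNA came from the descending aorta of male mice of the inbred strain C57BL/6, aged 6 months or 20 months, on standard chow with no other treatment named in the labels. There were 6 mice at each age and 1 array of 1 colour for each mouse. Per the labels' protocols the vessel had been flushed and its surrounding fat removed before freezing.

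White fat cells store triglyceride in a droplet coated by perilipin and release hormones, the adipokines, into the blood and into neighbouring tissue. The nuclear receptor PPAR gamma, product of Pparg, drives the formation of fat cells and the genes of lipid uptake and storage, among them Lpl, Fabp4, Plin1 and Adipoq. Around the aorta of the mouse lies a fat layer that resembles brown fat in the chest, and its adipokines can act on the vessel wall. In whole-tissue RNA, fewer cells of a type and less RNA for each cell cannot be told apart.

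The sequences behind the measurements are shown first. Each probe is an oligonucleotide of 60 bases that binds labelled copies of 1 transcript. The probe of Adipoq, one of the 2 probes of Retn and one of the 2 probes of Lpl are given, because Retn and Lpl correlated with Adipoq between mice. For Adipoq this is the probe behind the values, and for Retn and Lpl it is the other probe, whose change is given beside that of the brighter probe used. Their positions in the mouse build mm9, taken from the array files, are chr16:23157576-23157635 on the plus strand for Adipoq, chr8:3657312-3657371 on the plus strand for Retn and chr8:71425050-71425109 on the plus strand for Lpl. Exon and UTR annotation of that build was not used here.
Adipoq probe: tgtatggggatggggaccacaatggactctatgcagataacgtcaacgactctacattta
Retn probe: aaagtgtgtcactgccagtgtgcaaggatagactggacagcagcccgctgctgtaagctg
Lpl probe: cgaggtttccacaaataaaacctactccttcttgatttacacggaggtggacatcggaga

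Promoter sequence from RefSeq (build GRCm38.p6, 250 bases before to 50 bases after the start of a transcript) matched 7 of the 10 genes with 10 start sites. Fabp4, Lpl and Rarres2 had no entry. Promoters of Adipoq, Retn and Pparg are printed because Retn and Pparg each correlated with Adipoq between mice, and that of Lep because its correlation with Adipoq did not pass the test. On both strands 4 motifs were searched, and capitals mark every match. They were the PPAR response element as an exact direct repeat with a spacer of 1 base, the C/EBP site TTGCNNAA, the TATA box TATAAA and the box CCAAT. Of the 32851 promoters in the table, 0.0396% held the PPAR element, 10.8% the C/EBP site, 13.6% the TATA box and 37.4% the CCAAT box.
Adipoq, chr16:23146286-23146585, plus strand: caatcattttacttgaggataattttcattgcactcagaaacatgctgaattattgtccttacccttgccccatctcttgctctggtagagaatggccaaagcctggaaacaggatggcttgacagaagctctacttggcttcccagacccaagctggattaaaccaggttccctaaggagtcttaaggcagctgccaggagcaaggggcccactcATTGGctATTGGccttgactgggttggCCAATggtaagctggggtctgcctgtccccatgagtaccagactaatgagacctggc
Retn, chr8:3655520-3655819, plus strand: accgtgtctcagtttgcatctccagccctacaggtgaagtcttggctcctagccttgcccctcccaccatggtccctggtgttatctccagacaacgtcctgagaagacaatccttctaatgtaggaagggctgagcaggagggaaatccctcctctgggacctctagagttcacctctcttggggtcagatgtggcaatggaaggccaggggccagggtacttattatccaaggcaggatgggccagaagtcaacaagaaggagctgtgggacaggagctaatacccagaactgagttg
Pparg, the most downstream of its 3 starts, chr6:115421816-115422115, plus strand: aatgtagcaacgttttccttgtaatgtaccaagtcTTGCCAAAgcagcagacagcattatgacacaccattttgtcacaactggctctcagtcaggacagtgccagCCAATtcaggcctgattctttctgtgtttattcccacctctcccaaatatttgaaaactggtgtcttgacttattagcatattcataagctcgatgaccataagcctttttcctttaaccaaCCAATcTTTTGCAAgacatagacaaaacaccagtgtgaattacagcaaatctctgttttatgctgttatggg
Lep, chr6:29059971-29060270, plus strand: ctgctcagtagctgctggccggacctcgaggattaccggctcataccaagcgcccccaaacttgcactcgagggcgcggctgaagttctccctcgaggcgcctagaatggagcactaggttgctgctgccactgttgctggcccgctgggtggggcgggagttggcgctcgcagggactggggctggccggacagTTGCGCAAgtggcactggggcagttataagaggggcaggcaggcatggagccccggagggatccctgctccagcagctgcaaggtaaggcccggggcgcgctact

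In these windows a match is a run of letters, given by the position of its first base from the start site. The Adipoq window held 3 CCAAT matches, at -34 and -27 on the minus strand and at -7 on the plus strand. The window of Pparg held a C/EBP match at -215, CCAAT matches at -144 and -22, and a further C/EBP match on the minus strand at -16. In the Lep promoter the C/EBP letters TTGCGCAA began at -55. The Retn window held none of the 4 motifs. None of the 10 windows held the PPAR element in these letters. No binding was measured.

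Signals below are log2 values minus the 75th percentile of the gene probes on the same array, so that a step of 1 is a factor of 2. They compare mice for 1 probe and not 1 probe with another. Per array, 47.5% to 55.8% of gene probes were well above background. There were 3 slides with 2 arrays of each age. Old mice always occupied column 3 and young mice column 1 (5 arrays) or column 4 (1 array), so that column and age cannot be told apart. Every probe of the 10 genes stood well above background on all 12 arrays and none was saturated. The tissue label matched its markers: all 8 smooth muscle genes tested, Acta2 and Tagln among them, stood above background on all 12 arrays. So did all 13 brown adipocyte genes, Cidea and Cox8b among them, although fat had been removed. Heart muscle markers were high in 20 months replicate 1 (mean of the list 3.20 above its 12-array mean, log2) and in 6 months replicate 1 (2.07), and T and NK cell markers in 6 months replicate 4 (1.68). These are named below as the 3 arrays with foreign markers. Mesothelial markers, of which none of the 5 tested stood above background on all 12 arrays, were highest in 6 months replicate 3 (2.36), which is not among those 3. Correlations without it are given separately.

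Between 6 and 20 months none of the 10 genes passed the test. The test was limma with Benjamini-Hochberg adjustment over all 16921 genes at an adjusted p of 0.05, by which 53 genes, or 0.313%, were called. Of these 44 (0.26%) were higher and 9 (0.0532%) lower at 20 months. At an unadjusted p under 0.05 the count was also 0 of 10, beside 7.98% of all genes. In no member did the 6 values of 1 age lie clear of the 6 of the other, which was so for 0.81% of all genes. The median change of the members was -0.04 on the log2 scale and that of all genes -0.02. The members had 7 negative and 3 positive values, beside 56.1% negative over all genes. With quantile normalization 4 members were negative and 6 positive.

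**Figure D1:**
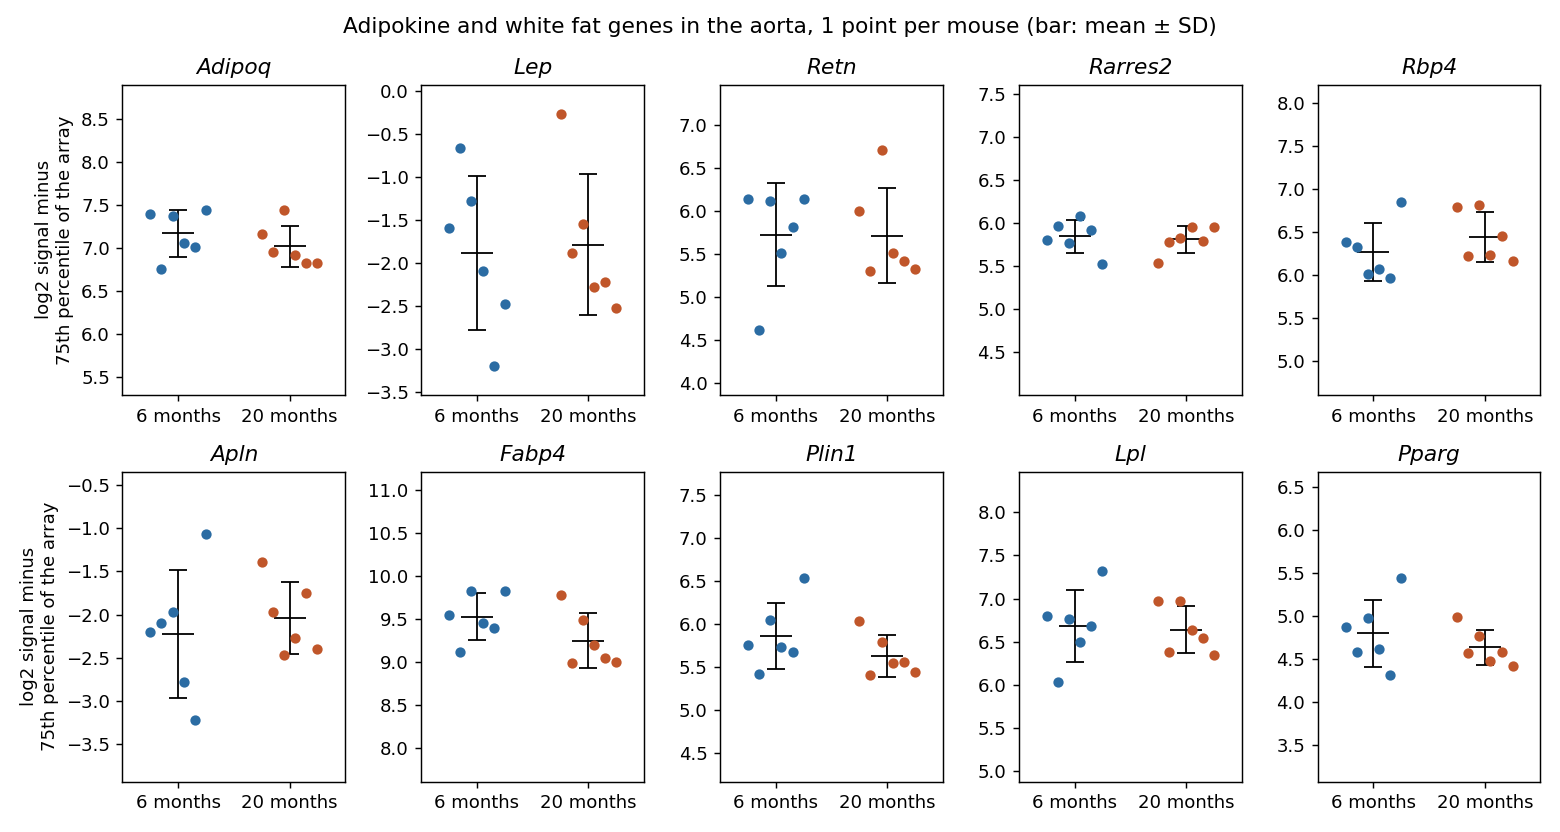
Log2 signal minus the 75th percentile of the array for the 10 genes (vertical axis, the same span in every panel) in 6 mice aged 6 months (blue) and 6 aged 20 months (orange), with mean and SD as bars. The ages overlap in every panel, and Lep, Apln and Retn spread most between arrays. The lowest values of Lep and Apln lie near background.

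Among the secreted factors, Adipoq encodes adiponectin, an abundant hormone of fat cells that sensitises tissues to insulin. Its lowest, median and highest signals were 6.75, 7.22 and 7.43 at 6 months and 6.82, 6.93 and 7.44 at 20 months. The ranges nearly coincided, and only 1 of the 6 values at 20 months, in replicate 3, lay above the median at 6 months. The means were 7.17 ± 0.27 and 7.02 ± 0.24 (SD, n = 6 each), a difference of -0.15 (SE 0.14, 95% interval -0.46 to 0.15, limma adjusted p = 0.801). As a ratio of 20 to 6 months this is 0.90, with an interval from 0.729 to 1.11. It was -0.10 without 6 months replicate 6 and -0.24 without 6 months replicate 2 or without 20 months replicate 3.

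Lep encodes leptin, the hormone that reports fat stores to the brain and is made mainly by white fat. Its signals ran from -3.19 through a median of -1.85 to -0.67 at 6 months and from -2.53 through -2.05 to -0.27 at 20 months. The highest value at each age came from 6 months replicate 2 and 20 months replicate 1, and the lowest from 6 months replicate 5 and 20 months replicate 6. The difference between ages was 0.10 (SE 0.44, interval -0.85 to 1.04, limma adjusted p = 0.969), so these arrays leave room for a ratio between 0.555 and 2.06. Lep was spotted 10 times on each array. The SD between the 9 or 10 spots used had a median of 0.165 over arrays, while the SD between arrays was 0.90 at 6 months and 0.82 at 20 months. Part of that spread went with the slide: the means at 6 and 20 months were -0.98 and -1.08 on slide 1, -2.64 and -2.40 on slide 2 and -2.04 and -1.89 on slide 3. With slide as a fixed block the SE of the difference was 0.30 in place of 0.44. The spread of Lep within an age exceeded that of 99.1% of all genes tested. Lep was dim: its value of -3.19 in 6 months replicate 5 lay near that array's lowest signal above background, -3.62. With normexp (offset 50), another background step, the difference was 0.02 and its SE 0.22. The offset is added to each signal before the log and narrows the differences of dim probes. The smaller SE is therefore not a gain in precision. The SD between spots does not show an error shared by a whole array. The part of dim signal in the spread was not tested.

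Retn encodes resistin, which in mice is secreted by fat cells and opposes insulin. It ran from 4.62 through 5.97 to 6.14 at 6 months and from 5.30 through 5.46 to 6.70 at 20 months. The low end was 6 months replicate 2 and the high end 20 months replicate 3. The difference was -0.02 (SE 0.29, interval -0.65 to 0.62, limma adjusted p = 0.994), and the probe printed above gave 0.01 (SE 0.30). The spread of Retn within an age exceeded that of 96.0% of genes.

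Rarres2 encodes chemerin, a chemoattractant adipokine also made by liver and stroma. It was the steadiest of the 10, with values from 5.53 to 6.08 at 6 months around a median of 5.86 and from 5.54 to 5.96 at 20 months around 5.81. Its spread exceeded that of 38.8% of genes. The difference of -0.04 (SE 0.10) had the narrowest interval, -0.26 to 0.18, or a ratio between 0.837 and 1.14. Its lowest values were those of 6 months replicate 6 and 20 months replicate 1.

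Rbp4 encodes the plasma carrier of retinol. It ran from 5.96 through 6.20 to 6.85 at 6 months and from 6.16 through 6.34 to 6.81 at 20 months, and 5 of the 6 values at 20 months lay above the median at 6 months. The difference was 0.18 (SE 0.17, interval -0.18 to 0.54, limma adjusted p = 0.806), 0.09 without the 3 arrays with foreign markers, and between 0.10 and 0.29 with 1 array left out. Apln encodes apelin, a peptide of endothelium and fat that relaxes vessels through its receptor Aplnr. It ran from -3.22 through -2.15 to -1.06 at 6 months and from -2.47 through -2.12 to -1.39 at 20 months, so that the range at 20 months lay inside that at 6 months. Its lowest value, in 6 months replicate 5, also lay near that array's lowest signal above background, -3.62. The difference was 0.18 (SE 0.31, interval -0.48 to 0.85, limma adjusted p = 0.905). With normexp, whose offset of 50 narrows the differences of dim probes, the difference was 0.04 and its SE 0.13. By slide it was 0.36, 0.67 and -0.48, and without the 3 arrays with foreign markers -0.08.

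Fabp4 encodes the fatty acid carrier of fat cells, which is also found in small vessels and macrophages. It had the smallest p of the 10. Its values were 9.12, 9.50 and 9.83 (lowest, median, highest) at 6 months and 8.99, 9.12 and 9.78 at 20 months. Of the 6 values at 20 months 1, in replicate 1, lay above the median at 6 months. The means were 9.53 ± 0.27 and 9.25 ± 0.32 (SD, n = 6 each), a difference of -0.28 (SE 0.16, interval -0.62 to 0.06, limma adjusted p = 0.691). Its value was -0.09, -0.33 and -0.42 on slides 1, 2 and 3. Without the 3 arrays with foreign markers it was -0.40 (adjusted p = 0.456).

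Plin1 encodes perilipin 1, the coat of the lipid droplet that gates lipolysis. It ran from 5.41 through 5.75 to 6.53 at 6 months and from 5.40 through 5.55 to 6.04 at 20 months, and the highest value was again that of 6 months replicate 6. The difference was -0.23 (SE 0.17, interval -0.60 to 0.14, limma adjusted p = 0.762), and by slide -0.01, -0.21 and -0.47. It was -0.37 without the 3 arrays with foreign markers (adjusted p = 0.564) and -0.09 without 6 months replicate 6.

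Lpl encodes lipoprotein lipase, which frees fatty acids from circulating triglyceride. It ran from 6.03 through 6.72 to 7.32 at 6 months and from 6.35 through 6.59 to 6.98 at 20 months. The difference was -0.04 (SE 0.19, interval -0.45 to 0.37, limma adjusted p = 0.970). The probe printed above gave -0.21 (SE 0.18). By slide the value of the probe used was 0.28, -0.10 and -0.30. Pparg ran from 4.32 through 4.74 to 5.44 at 6 months and from 4.42 through 4.58 to 4.99 at 20 months. The difference was -0.16 (SE 0.17, interval -0.52 to 0.20, limma adjusted p = 0.821), with 0.00, -0.01 and -0.48 on the 3 slides. It was -0.26 without the 3 arrays with foreign markers (adjusted p = 0.680), -0.26 without 6 months replicate 5 and -0.04 without 6 months replicate 6. The Pparg probe was also spotted 10 times, with a median SD between spots of 0.042.

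**Figure D2:**
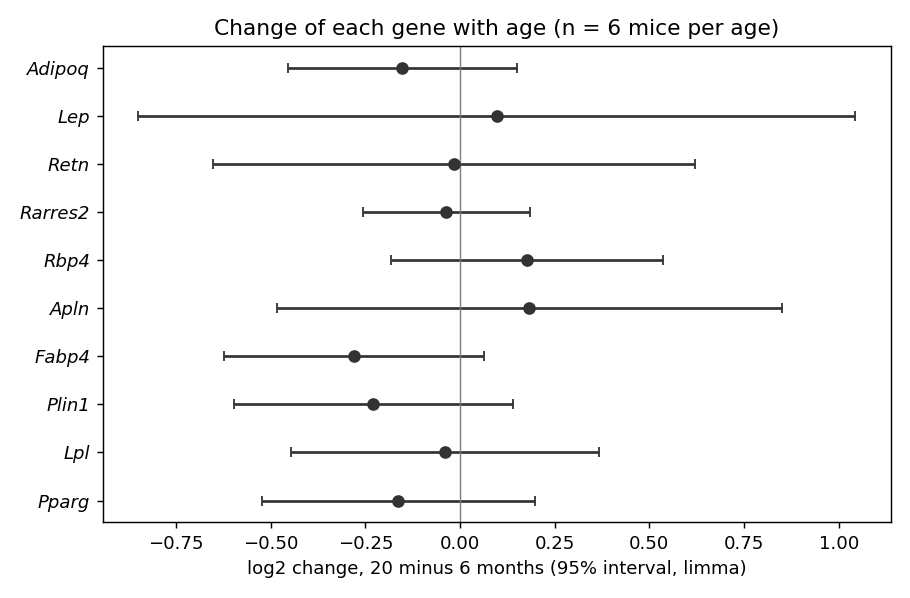
Difference between 20 and 6 months for each gene (horizontal axis, log2) with its 95% interval from limma, 6 mice at each age. Every interval includes 0, the narrowest being that of Rarres2 and the widest that of Lep.

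The members differed more between mice of 1 age than typical genes. The SD within an age had a median of 0.318 over the 10 members and 0.203 over all genes tested. Some members shared part of this spread, whereas Lep and Apln, among the widest in spread, did not pass against Adipoq. Adipoq was set against each of the other 9 genes over the 12 mice, with a two-sided permutation test of 100000 draws and Benjamini-Hochberg adjustment over the 9 pairs. Correlation with Adipoq was highest for Retn (Pearson's r = 0.90, Spearman's rho = 0.94, permutation p = 1e-05 for r, the smallest these draws can give, adjusted p = 9e-05, and permutation p = 4e-05 for rho, adjusted p = 3.6e-04). For Fabp4 r was 0.84 and rho 0.81 (permutation p = 0.00145 and 0.00194, adjusted p = 0.00326 and 0.00436). Lpl gave r = 0.84 and rho = 0.87 (permutation p = 4.8e-04 and 4.6e-04, adjusted p = 0.00216 and 0.00207). Plin1 gave r = 0.78 and rho = 0.83 (permutation p = 0.00121 and 0.00123, adjusted p = 0.00326 and 0.00369). Pparg gave r = 0.75 and rho = 0.69 (permutation p = 0.00309 and 0.0151, adjusted p = 0.00556 and 0.0272). Over all other genes tested the median r with Adipoq was 0.07, and 4.65% of them reached 0.75. Pparg, at 0.7496 before rounding, lay just below that.

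The remaining 4 genes did not pass against Adipoq. Rbp4 had r = 0.43 and rho = 0.34 (permutation p = 0.158 and 0.286, adjusted p = 0.204 and 0.368). Apln had r = 0.24 and rho = 0.04 (permutation p = 0.459 and 0.921, adjusted p = 0.516 and 0.921). Lep had r = 0.13 and rho = 0.18 (permutation p = 0.687 and 0.575, adjusted p = 0.687 and 0.647). Rarres2 had r = -0.53 and rho = -0.48 (permutation p = 0.0764 and 0.115, adjusted p = 0.115 and 0.172), and its sign turned with median scaling, where r was 0.18, while with quantile normalization r was -0.63 (permutation test, adjusted p = 0.041). A p above the threshold does not show that these genes are unrelated to Adipoq. Over all other genes tested, 45.1% had a negative r with Adipoq, and for 9.92% it was -0.5 or below.

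**Figure D3:**
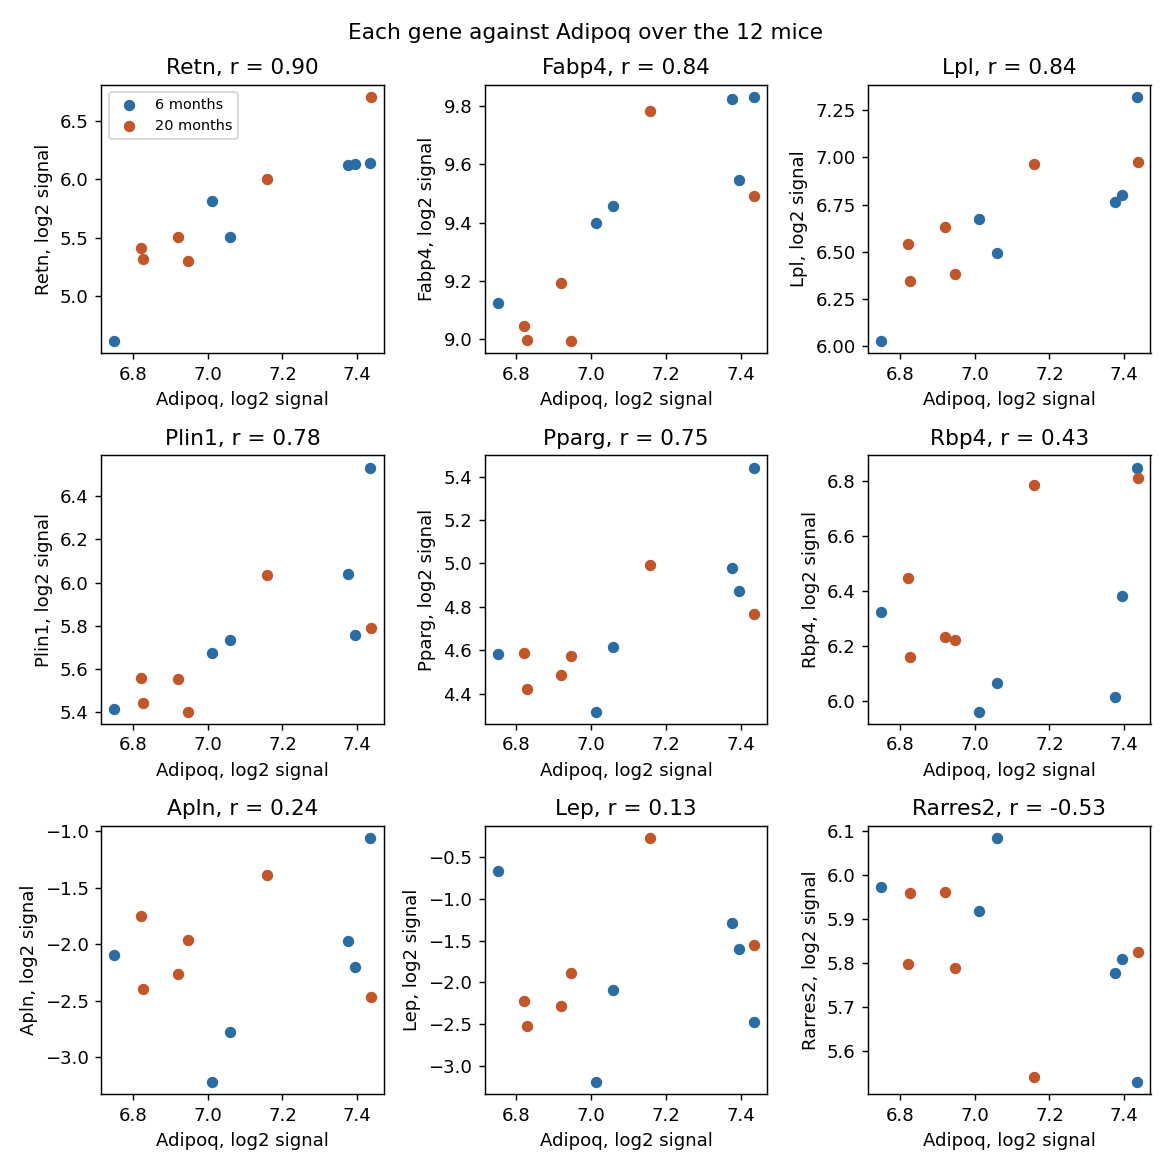
Log2 signal of 9 genes (vertical axes) against that of Adipoq (horizontal axes), 1 point for each of the 12 mice, blue for 6 months and orange for 20 months, with Pearson's r in each title. Retn, Fabp4, Lpl, Plin1 and Pparg rise with Adipoq over the 12 mice (r from 0.75 to 0.90), and Lep is scattered.

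The relations were recomputed without the extreme mice and within the ages. Without the 2 arrays farthest from the median of Adipoq, 20 months replicate 3 and 6 months replicate 6, r was 0.88 for Retn, 0.85 for Fabp4, 0.76 for Lpl, 0.81 for Plin1 and 0.74 for Pparg. By rho Pparg no longer passed without them (0.59, permutation test, adjusted p = 0.143). For Rbp4 r went to -0.01. A slide held 4 arrays, too few for a value within it. With the means of age and slide removed, r was 0.95 for Retn, 0.85 for Fabp4, 0.82 for Lpl, 0.68 for Plin1 and 0.63 for Pparg. That of Pparg no longer passed (permutation test, adjusted p = 0.0527), and that of Plin1 lay near the threshold (permutation test, adjusted p = 0.0344). The draws treated the 12 remaining values as free although these means had been taken out, so these p are too small. Whether Plin1 passes there is therefore not settled. Within 6 months alone r was 0.93, 0.93, 0.88, 0.80 and 0.77 for Retn, Fabp4, Lpl, Plin1 and Pparg. In that order it was 0.97, 0.75, 0.85, 0.69 and 0.70 within 20 months alone. With 6 mice, Retn, Fabp4 and Lpl passed by r at 6 months (exact permutation test, adjusted p = 0.0292 each) and none of the 5 at 20 months (exact permutation test, adjusted p from 0.113 to 0.177). In the same order rho was 0.94, 0.94, 0.94, 0.94 and 0.89 at 6 months. At 20 months rho was lower, 0.60, 0.54, 0.71, 0.43 and 0.60 (exact permutation test, adjusted p from 0.435 to 0.539).

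All 45 pairs of members were then computed, a step chosen after the values were seen, with adjustment over the 45. In 34 pairs r was positive and in 11 negative, with a median of 0.43. Fabp4 with Plin1 (r = 0.90, rho = 0.96), Plin1 with Pparg (r = 0.90, rho = 0.83) and Plin1 with Lpl (r = 0.88, rho = 0.88) were among the highest, beside Adipoq with Retn (r = 0.90, rho = 0.94). The permutation p of r was 2e-05, 3.1e-04 and 1.1e-04 in these 3 pairs and their adjusted p 4.5e-04, 0.00349 and 0.00165. The permutation p of rho was 1e-05, 0.00163 and 2.6e-04 and its adjusted p 4.5e-04, 0.00667 and 0.00234. Retn with Pparg was weaker, with r = 0.53 and rho = 0.67 (permutation p = 0.0751 and 0.0197, adjusted p = 0.127 and 0.0553). Without the 2 arrays farthest from the median of the first gene named, r was 0.88 for Fabp4 with Plin1, 0.71 for Plin1 with Pparg, 0.85 for Plin1 with Lpl and 0.74 for Retn with Pparg.

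Rarres2 had a negative r with all 9 others, from -0.82 with Apln to -0.30 with Lep. These 9 values are not independent of one another, as many of the 9 genes also correlated among themselves. With age and slide removed r was 0.19 with Lep and -0.66 with Apln, and under median scaling the sign against Adipoq turned, as given above. The other pairs of Rarres2 were not recomputed under another scaling. With Apln r was -0.82 and rho -0.78 (permutation p = 0.00164 and 0.00441, adjusted over the 45 pairs p = 0.00716 and 0.0153), and with Pparg r was -0.79 and rho -0.64 (permutation p = 0.00196 and 0.0285, adjusted p = 0.00735 and 0.0755). Without the 2 arrays farthest from the median of Rarres2, r was -0.52 with Pparg and -0.56 with Apln. Lep passed with none of the 9, and its r ran from -0.30 to 0.43.

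**Figure D4:**
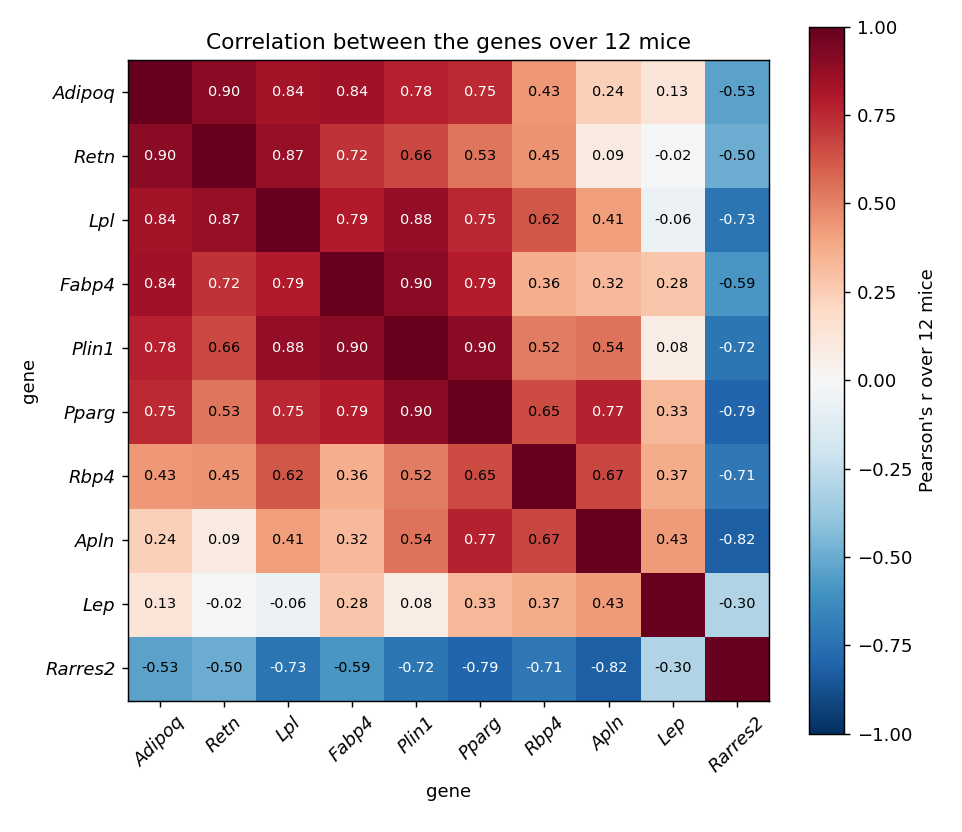
Pearson's r over the 12 mice for each pair of the 10 genes (rows and columns), from -1 in blue to 1 in red. The first 6 genes, Adipoq and those that passed against it in these mice, have r from 0.53 to 0.90. They were grouped after their values were seen. Lep lies between -0.30 and 0.43. Rarres2 is negative with all in these values, though not for Lep once age and slide are removed.

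Mice high in the 6 genes Adipoq, Retn, Lpl, Fabp4, Plin1 and Pparg were found at both ages. Their mean, each gene centred on its 12-array mean, was highest in 6 months replicate 6 (0.56), followed by 20 months replicate 3 (0.31), 6 months replicate 3 (0.30) and 20 months replicate 1 (0.27). It was lowest in 6 months replicate 2 (-0.47) and 20 months replicate 6 (-0.33). These 6 genes were grouped after their values were seen, so the means are a description. The mean over all 10 members put 20 months replicate 1 first (0.41), where Lep stood 1.57 and Apln 0.74 above their own means, and 6 months replicate 5 last (-0.32), where Lep stood at -1.36 and Apln at -1.09. The mean over the 13 brown adipocyte genes was 0.68 in 6 months replicate 6, 0.56 in 6 months replicate 3 and 0.36 in 20 months replicate 1, but -0.29 in 20 months replicate 3. It ranged from -0.20 to 0.68 at 6 months and from -0.37 to 0.36 at 20 months. The mean over the 8 smooth muscle genes was -0.39, -0.34 and -0.19 in those first 3 arrays and 0.09 in 20 months replicate 3, and ran from -0.39 to 0.19 at 6 months and from -0.19 to 0.19 at 20 months. Heart muscle markers were highest in 20 months replicate 1 (3.20), and their part in its brown adipocyte mean was not tested. The part of brown fat and smooth muscle cells in the shared spread was not tested. Without 6 months replicate 6, a choice made after seeing the data, r with Adipoq was 0.91 for Retn, 0.81 for Fabp4, 0.81 for Lpl, 0.78 for Plin1 and 0.72 for Pparg, and by rho Pparg no longer passed (0.64, permutation test, adjusted p = 0.0729). Without the 3 arrays with foreign markers, in 9 mice, r was 0.91 for Retn, 0.90 for Fabp4, 0.87 for Lpl, 0.84 for Plin1 and 0.76 for Pparg, and all 5 passed (exact permutation test, adjusted p at most 0.0196). By rho only Retn and Lpl passed there, with an adjusted p of 0.0138 each, against 0.0829 for Fabp4 and Plin1 and 0.345 for Pparg (exact permutation test). Without 6 months replicate 3, also left out after seeing the data, r was 0.90 for Retn, 0.82 for Fabp4, 0.86 for Lpl, 0.76 for Plin1 and 0.73 for Pparg, and by rho Pparg did not pass (0.66, permutation test, adjusted p = 0.0555).

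Beyond the 10 members and the lists below, the genes of 16800 whose signal over the 12 arrays was most like that of Adipoq were C3, the central complement component (r = 0.946), Acp5 (0.944), Prr5 (0.941), Cmbl (0.935) and Pfkfb1 (0.935). Most like Lep were Cdnf (0.936), Fxr1 (0.931), Gprin3 (0.911), Cmpk2 (0.902) and Gga2 (0.871), and most like Apln were Notch4 (0.919), Mlh3 (0.911), Commd4 (0.904), Rpgr (0.901) and Parp1 (0.898). These genes were picked for their likeness, so no test is given.

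Related genes were followed in 5 lists, of which 83 genes were tested (Nnat stands in 2 lists). None passed the test over all genes (0 of 83, beside 0.313% of all genes called), and 4 had an unadjusted p under 0.05 (limma, beside 7.98% of all genes). Sign counts of the lists stand beside 56.1% negative values over all genes. The receptors of the adipokines gave 3 positive and 7 negative values among 10 tested, with a median change of -0.03. The smallest p belonged to Lepr, the leptin receptor (-0.27, SE 0.15), Adipor2, a receptor of adiponectin (-0.29, SE 0.21), and Aplnr, the apelin receptor (-0.21, SE 0.24). The adjusted p of these 3 ran from 0.689 to 0.834 (limma). Without the 3 arrays with foreign markers Adipor2 was -0.47 and Aplnr -0.46, without 6 months replicate 6 they were -0.15 and -0.13, and on slide 1 alone Aplnr was 0.30. Stra6, the receptor of Rbp4, stood above background on 1 array at most and was not tested.

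The list of triglyceride uptake, storage and lipolysis held 27 genes, all tested, with 25 negative and 2 positive values. Its median was -0.16 beside -0.02 over all genes, and between -0.157 and -0.105 under the other scalings. Plin4, a perilipin (-0.15, SE 0.08), Gpd1, which supplies glycerol phosphate (-0.39, SE 0.27), and Cd36, a fatty acid transporter (-0.26, SE 0.20), had the smallest p, and their adjusted p was 0.677, 0.756 and 0.762 (limma). The 25 signs come from the same 12 mice and are not independent of one another. The brown adipocyte genes gave 12 negative and 1 positive value with a median of -0.33, none of them past the test, and the part of brown fat in the values of the triglyceride list was not tested.

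Adipogenic transcription factors gave 6 positive and 9 negative values among 15 tested (median -0.04). The smallest p belonged to Cebpd (0.27, SE 0.13), Klf5 (0.33, SE 0.17) and Stat5a (-0.33, SE 0.18). Other adipokines gave 7 positive and 14 negative values among 21 tested (median -0.02), and with median scaling 11 and 10. Retnla, a resistin-like protein of macrophages, had a difference of 0.49 (SE 0.18, adjusted p = 0.466, limma), while Angptl4, an inhibitor of lipoprotein lipase, had -0.37 (SE 0.27). Itln1, Serpina12, Tnf, Il6, Retnlb and Retnlg stood above background on 3 arrays at most and were not tested. The genes chosen as selective for white fat gave 6 positive and 5 negative values among 11 tested (median 0.03), and with normexp 4 and 7. Sncg (0.49, SE 0.13, adjusted p = 0.233, limma), Wfdc21 (-0.68, SE 0.30) and Lpgat1 (-0.18, SE 0.10) had the smallest p. Wfdc21 was not above background on every array. Its value was -0.19 with normexp, whose offset narrows the differences of dim probes. It was -0.43 without 6 months replicate 3 and -0.12 on slide 3 alone.

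**Figure D5:**
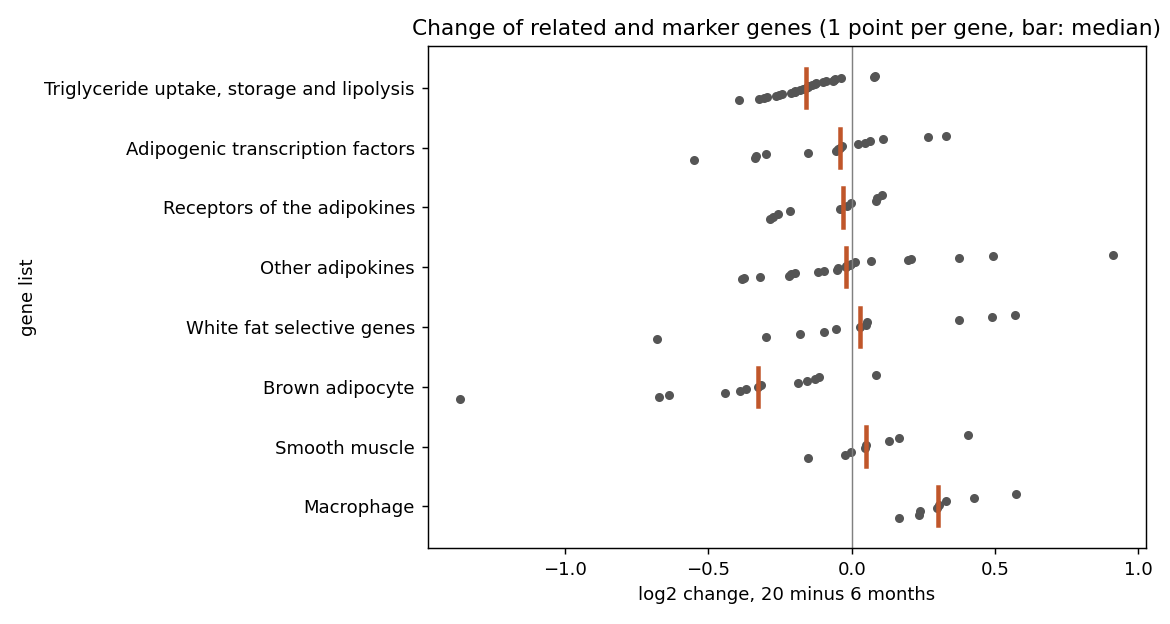
Difference between 20 and 6 months (horizontal axis, log2) for each tested gene of 5 related lists and 3 marker lists (vertical axis), with the median as an orange bar. The triglyceride list has 25 of 27 points below 0 and a median of -0.16, the brown adipocyte list a median of -0.33, and no point passed the test.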

How the data were processed

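RNA of 12 aortas was measured on 1-colour (Cy3) Agilent arrays. Per the file headers, the authors extracted an intensity for each of 62976 spots with Agilent Feature Extraction 10.7.1.1 (protocol GE1_107_Sep09, design 028005, build mm9), with spatial and multiplicative detrending switched on. The deposited value table holds log2 values whose steps are not given in the sources used here. Each probe's median is 0 in it, column medians run from -0.0346 to 0.012, and the changes of the members in it differ by at most 0.00946 from those after quantile normalization.

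From the processed signals, log2 was taken, spots flagged as outliers were dropped, spots of a probe averaged and the 75th percentile of 55630 gene probes subtracted. Probes well above background on at least 6 of 12 arrays were kept, and a gene with several such probes was represented by the brightest on average. Names came from RefSeq accessions (26395 probes, table of GRCm38.p6, names only), symbols (3851) or the array (5505), and 19879 probes had none. Ages were compared with limma 3.58.1 in R 4.3.3 (lmFit, eBayes, age as the only term), and the fit was tested on simulated data. The number of arrays limits the precision. The labels say that RNA came from individual mice.

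The alternatives were normexp (offset 50), quantile and median scaling, the value table, 2 other filters, slide blocks, each slide alone, a replicate block, trend and robust eBayes, every probe or the mean over probes, each array left out, and the 3 arrays with foreign markers left out. All members were named, with the 3 genes of smallest p in each related list (1 gene of these is counted in its list but not reported here by name), the 2 brightest genes of a marker list where one is described, and the 5 genes most like Adipoq, Lep and Apln. The members, lists and alternatives were chosen with earlier results of these data known.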

Additional observations from a re-analysis of the deposited data

How the results depend on the processing

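None of the 10 members passed under any of the 27 alternatives at the level of genes or with every probe tested, and none of the related genes did. The lowest adjusted p of a member was 0.286, that of Fabp4. Adipoq (-0.29 to -0.01), Fabp4 (-0.42 to -0.09), Plin1 (-0.47 to -0.01) and Rbp4 (0.01 to 0.33) kept their sign under all of them. The others did not, and the cause was not tested. With quantile normalization and with the value table alike, Retn, Rarres2 and Lpl turned positive (0.0362, 0.0364 and 0.0483 with the first, 0.0363, 0.0361 and 0.0484 with the second), and with median scaling Retn was 0.0179. On slide 1 alone Lep was -0.10, Retn 0.28, Lpl 0.28, Pparg 0.00195, Cebpd -0.0843 and Aplnr 0.298, on slide 2 alone Plin4 was 0.0186, and on slide 3 alone Rarres2 was 0.14, Apln -0.48 and Angptl4 0.104. Without the 3 arrays with foreign markers Lep was -0.19, Rarres2 0.0669 and Apln -0.0815. With 1 array left out Pparg ran from -0.26 to -0.0355, Plin1 from -0.318 to -0.0941, Retn from -0.236 to 0.0679, Lpl from -0.17 to 0.0883, Rarres2 from -0.10 to 0.0176, Lep from -0.207 to 0.34 and Apln from -0.0165 to 0.416.

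The number of genes called over all genes was 53 and became 33 with median scaling, 23 with no filter on dim probes, 6 with the replicate block, 1 on slide 1, 1 on slide 2 and 0 on slide 3 alone (limma on 4 arrays), and 30 without the 3 arrays. With 1 array left out it ran from 21 to 58, being 21 to 26 without 20 months replicate 2, 3, 4, 5 or 6, 29 to 30 without 6 months replicate 3, 4 or 5, and at least 37 without any other. No pairing of the mice by replicate number was seen: the deviations of same-numbered arrays correlated at -0.36 to 0.32. The best match had the same number for 1 of the 6 numbers. Such correlations cannot exclude a pairing in the handling of the mice. With the replicate block Adipoq stayed at -0.15 and no member passed (lowest adjusted p = 0.735, Fabp4).

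Correlations with Adipoq (permutation tests, exact under 10 mice): Rarres2 was -0.63 with quantile normalization and -0.64 with the value table, where it passed, and 0.18 with median scaling, where Rbp4 passed at 0.72. Pparg was 0.63 with age and slide removed. At 6 months alone Plin1 was 0.80, Pparg 0.77 and Lep -0.20. At 20 months alone Retn was 0.97, Fabp4 0.75, Plin1 0.69, Lpl 0.85, Pparg 0.70 and Apln -0.12. For Retn, Fabp4, Plin1, Lpl and Pparg rho was lower there, as given above. Rbp4 was -0.00765 without the 2 farthest arrays and Apln -0.00571 without 6 months replicate 6 and 0.222 without 6 months replicate 3.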

Other observations

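Marker lists of other cell types gave values outside the comparisons above. All 8 macrophage genes tested had a positive difference between 20 and 6 months (median 0.30, log2, beside -0.02 over all genes). Of them 4 had an unadjusted p under 0.05 (limma, beside 7.98% of all genes), but none passed limma's test over all genes. Of the 8, 6 stood above background on all 12 arrays. The mean over the list ran from -0.48 to 0.22 at 6 months and from 0.02 to 0.40 at 20 months. None of the 5 mesothelial genes tested stood above background on all 12 arrays, so no size is given for their difference. It was negative in all 5, each at an unadjusted p under 0.05 (limma, beside 7.98% of all genes), and passed the test over all genes in none. The 4 erythroid genes tested were all positive (median 0.59), 1 of them at an unadjusted p under 0.05 (limma, beside the same 7.98%) and none past the test over all genes. The genes of a list come from the same 12 mice and are not independent of one another.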
